A study of Rattus norvegicus with 9 samples.

Results

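The genes of the NADPH oxidase complexes were followed in the left ventricle of rats after myocardial infarction (MI), with and without dapagliflozin (DAPA), an inhibitor of the sodium-glucose cotransporter of the kidney. The members were the 6 subunit genes Cybb, Cyba, Ncf1, Ncf4, Rac2 and Nox4, taken by name from the 35843 genes of the expression table, in which each name occurs once. All 6 passed the filter on low values (FPKM of 1 or more in 3 or more rats) in each comparison. FPKM counts fragments per kilobase of transcript, scaled to the size of the library, so levels are given per transcript length. RNA was sequenced from 3 adult male Sprague-Dawley (SD) rats in each of 3 groups at day 28. Group Sham was operated without ligation and received saline, group MI had the left anterior descending coronary artery permanently tied and received saline, and group MI + DAPA (1st d), written group DAPA from here on, had the same ligation and received DAPA at 1 mg/kg. Saline and drug were given by gavage every day from day 1. The animals carried no transgene, and the molecular work of the study mainly used the border of the infarct after the scar was trimmed away, with the matching region in group Sham. For the RNA sequencing itself the study names left ventricles and speaks of infarct myocardium in the groups with ligation. Which region of the ventricle entered these libraries is therefore not settled. The labels give the tissue only as heart.

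NADPH oxidases are membrane enzymes that carry electrons from NADPH across the membrane to oxygen and so release superoxide or hydrogen peroxide. In phagocytes such as macrophages and neutrophils the enzyme is split into parts. Cybb encodes the catalytic subunit, also called NOX2, which sits in the membrane bound to its partner p22phox, encoded by Cyba. On activation the organiser p47phox (Ncf1), p40phox (Ncf4) and the small GTPase Rac2 or Rac1 join them from the cytosol. Nox4 encodes a catalytic subunit that also needs p22phox but no cytosolic organiser, that works largely without a trigger and that is found in cardiomyocytes, endothelial cells and fibroblasts. Reactive oxygen from both enzymes has long been studied in the infarcted heart.

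The stretch before the transcription start is shown for the 4 of 6 members that matched an entry in the RefSeq promoter table (build GRCr8), 5′ to 3′ on the gene's own strand, to set the gene with the largest rise beside members that were not called. Letters in capitals mark the motif GAGGAA, the core of many sites bound by the myeloid factor PU.1, searched on both strands (as TTCCTC on the other) and with no other motif searched. The expression table gives no coordinates, and these positions are those of RefSeq. Each stretch ends before the most upstream annotated start of its gene, so those of Ncf1 and Nox4 stop short of the start used in the promoter table.
Cybb, chrX:16065066-16065215, strand minus: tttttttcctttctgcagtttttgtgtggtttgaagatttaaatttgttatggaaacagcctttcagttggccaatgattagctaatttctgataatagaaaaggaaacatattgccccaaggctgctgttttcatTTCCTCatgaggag
Cyba, chr19:67404215-67404364, strand minus: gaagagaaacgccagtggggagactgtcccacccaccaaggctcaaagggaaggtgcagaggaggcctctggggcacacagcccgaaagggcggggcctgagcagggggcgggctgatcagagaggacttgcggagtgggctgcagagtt
Ncf1, chr12:28121666-28121815, strand plus: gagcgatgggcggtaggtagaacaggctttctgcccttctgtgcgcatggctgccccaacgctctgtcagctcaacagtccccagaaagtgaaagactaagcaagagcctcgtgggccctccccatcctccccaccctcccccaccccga
Nox4, chr1:150313639-150313735, strand plus: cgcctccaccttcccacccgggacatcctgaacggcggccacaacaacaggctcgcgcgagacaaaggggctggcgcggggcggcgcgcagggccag
In the 250 bases before the start used in that table, Cybb held the motif 1 time, on the strand opposite to the gene and beginning 14 bases before the start, and Cyba, Ncf1 and Nox4 held it 0 times. Of all 33469 promoters of the same length, 23.3% held it. A match in letters is not a measured binding site. No stretch was available for Rac2 and Ncf4, which were also called higher in MI against Sham. Whether the motif goes with the calls therefore cannot be seen from these stretches.

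The reads recovered from the FPKM steps came to 13597239 to 17210909 per rat, of which the mitochondrial genome took 63.2% ± 3.18 in Sham rats (SD, n = 3), 13.8% ± 6.15 in MI rats and 25.6% ± 7.42 in DAPA rats. The deposited FPKM values centre all other genes, with a median log2 difference of -0.01 between MI and Sham over all genes tested. Scaled instead to all recovered reads, that median became 0.92 in MI against Sham, -0.21 in DAPA against MI and 0.74 in DAPA against Sham, and the calls split 6098 higher and 290 lower, 64 higher and 296 lower, and 4433 higher and 233 lower, where the deposited scale gave 1634 and 1390, 126 and 147, and 1274 and 1090. Changes below are on the deposited scale, that is, relative to the bulk of genes. Defining markers of cardiac muscle were present in every rat, with summed FPKM of 7 genes between 1420 and 11300. The library of MI replicate 2 stood apart from the other MI libraries. In it 5 T cell markers summed to 91.2 FPKM against 9.57 and 24.2, 3 B cell markers to 55.6 against 0.683 and 8.74, 4 pan-leukocyte markers to 326 against 124 and 140, and 10 macrophage markers to 2800 against 1550 and 1630. Its 7 cardiomyocyte markers summed to 1420 FPKM against 3720 and 7130, and the mitochondrial genome took 7.07% of its reads, the lowest share. Values without it are given below for some of the members and calls, not for all. In group Sham the macrophage markers of replicate 1 summed to 426 FPKM against 153 and 112 in the others. In group DAPA the cardiomyocyte markers of replicate 3 summed to 5420 FPKM against 10600 and 11300. The mitochondrial genome took 17.5% of the reads of DAPA replicate 3, against 27.2% and 32.0%. The part of these differences in the members' levels was not tested.

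The first comparison asked how subunit levels differed between infarcted and sham-operated hearts. Cybb, Rac2 and Ncf4, 3 genes of the phagocyte oxidase, rose in group MI, whereas Ncf1, Cyba and Nox4 did not pass the test. A gene was called at an unadjusted p under 0.05 with a log2 fold change beyond 1 in limma on log2(FPKM + 1), and Benjamini-Hochberg adjusted p-values over all genes tested are given beside the calls. Thus 3 of 6 members were called higher and 0 lower, where 12.1% and 10.3% of the 13485 genes tested were called in these directions. The 3 calls also had adjusted p-values under 0.05, and 11.5% of all genes tested combined such an adjusted p with a log2 difference above 1. In 4 of 6 members every MI rat lay above every Sham rat, which held for 27.1% of all genes.

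Cybb was 10.7, 4.17 and 4.14 FPKM in Sham replicates 1 to 3, 32.2, 59.4 and 36.9 FPKM in group MI, and 23.5, 19.7 and 39.2 FPKM in group DAPA. The lowest infarcted heart thus lay above the highest Sham heart, and Sham replicate 1 stood above the other Sham hearts. The group means were 6.34 ± 3.79, 42.8 ± 14.5 and 27.5 ± 10.3 FPKM (SD, n = 3 each). The difference between MI and Sham was 2.64 on the log2(FPKM + 1) scale (SE 0.37, 95% CI 1.76 to 3.53, limma with Benjamini-Hochberg adjusted p = 0.00274), a 6.25-fold rise on that scale. This was the largest difference among the members, and it ranged from 2.39 to 3.04 when each rat was left out in turn.

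Rac2, the GTPase found mainly in blood cells, was 15.6, 16.5 and 8.17 FPKM in group Sham, 28.2, 89.4 and 36.7 FPKM in group MI, and 29.1, 19.8 and 27.5 FPKM in group DAPA. All MI rats lay above all Sham rats, and MI replicate 2 held the highest value by a wide margin. The log2 difference between MI and Sham was 1.74 (SE 0.45, 95% CI 0.69 to 2.79, limma with Benjamini-Hochberg adjusted p = 0.0212). Without MI replicate 2 it was 1.26 and was still called.

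Ncf4, whose product p40phox binds membrane phosphoinositides, was the least abundant of the cytosolic subunits. Its levels were 7.92, 4.17 and 4.86 FPKM in group Sham, 11.5, 16.7 and 10.6 FPKM in group MI, and 9.36, 7.28 and 13.5 FPKM in group DAPA. The log2 difference between MI and Sham was 1.08 (SE 0.26, 95% CI 0.47 to 1.70, limma with Benjamini-Hochberg adjusted p = 0.017). The groups did not overlap, but the difference sat at the fold threshold: it was 0.90 without MI replicate 2, 0.92 without Sham replicate 2 and 0.98 when libraries were scaled to reads outside the mitochondrial genome, and in each case it was no longer called. In group Sham these levels rested on 64 to 124 recovered reads per rat, the fewest of any member.

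Ncf1, the organiser subunit that is phosphorylated to start assembly, was 12.9, 13.9 and 13.5 FPKM in group Sham, 15.5, 29.4 and 23.4 FPKM in group MI, and 15.7, 28.6 and 15.9 FPKM in group DAPA. The Sham hearts were close together and below every infarcted heart of both groups, while the infarcted hearts spread widely. The log2 difference between MI and Sham was 0.67 (95% CI 0.14 to 1.21), under the fold threshold, with an unadjusted p of 0.0209 and an adjusted p of 0.0526 in limma. Without MI replicate 2 it was 0.47, with an unadjusted limma p of 0.058.

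Cyba and Nox4 overlapped between the groups. Cyba, the shared membrane partner, was 144, 113 and 94.5 FPKM in group Sham, 101, 138 and 94.5 FPKM in group MI, and 96.0, 71.9 and 108 FPKM in group DAPA. Its log2 difference between MI and Sham was -0.08 (95% CI -0.59 to 0.43), and 1.02 on the scale of all recovered reads, where the median of all genes was 0.92. Nox4 was 5.76, 4.15 and 5.36 FPKM in group Sham, 6.55, 5.39 and 6.04 FPKM in group MI, and 4.78, 5.11 and 5.56 FPKM in group DAPA. The log2 difference of Nox4 between MI and Sham was 0.21 (95% CI -0.20 to 0.61), so a rise of up to 0.61 lay within its interval. On the scale of all recovered reads it was 1.13, or 0.20 above the median of all genes.

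**Figure D1:**
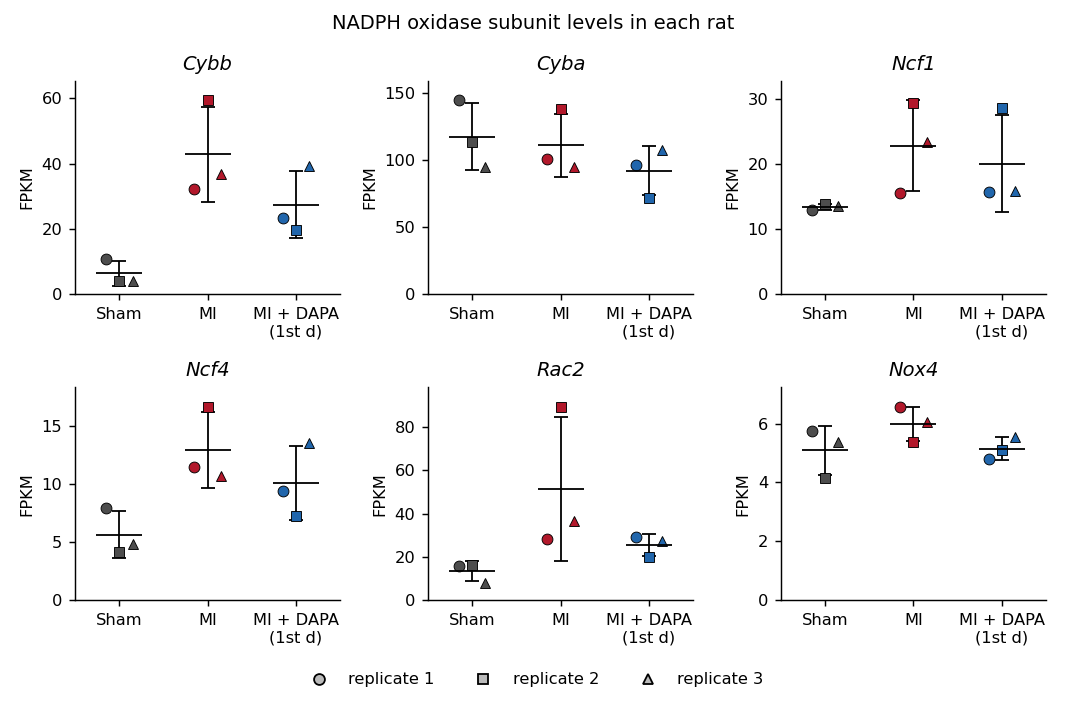
FPKM of the 6 subunit genes in each rat of group Sham, group MI and group DAPA, with replicate numbers as symbols and the group mean and SD as bars. Cybb lay between 4.14 and 10.7 FPKM in group Sham and between 32.2 and 59.4 FPKM in group MI, while the groups overlapped for Cyba and Nox4.

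The order of the levels changed between groups. In group Sham Cyba led with a mean of 117 FPKM, every rat above the next member, and the remaining 5 members from Ncf1 at 13.4 FPKM to Nox4 at 5.09 FPKM overlapped with their neighbours in the order. In group MI the order was Cyba at 111, Rac2 at 51.4, Cybb at 42.8, Ncf1 at 22.8, Ncf4 at 12.9 and Nox4 at 5.99 FPKM. There Rac2 and Cybb overlapped, as did Ncf1 and Ncf4, and the other neighbours were apart in every rat. In group DAPA Cyba at 91.9 FPKM was followed by Cybb at 27.5, Rac2 at 25.4 and Ncf1 at 20.04 FPKM, which overlapped in turn, and then by Ncf4 at 10.1 and Nox4 at 5.15 FPKM, each apart from its neighbour.

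Ratios between members within 1 rat do not depend on how the libraries were scaled. Cyba was 13.5 to 27.2 times as abundant as Cybb per transcript length in group Sham, 2.33 to 3.12 times in group MI and 2.75 to 4.10 times in group DAPA. The catalytic subunit of phagocytes thus came closer to its membrane partner in every infarcted heart. The ratio of Cybb to Nox4, the 2 catalytic subunits, was 0.773 to 1.86 in group Sham, 4.92 to 11.0 in group MI and 3.86 to 7.05 in group DAPA. Ncf4 to Cybb was 0.739 to 1.17, 0.28 to 0.355 and 0.345 to 0.399 in the same order of groups, and Ncf1 to Cybb was 1.21 to 3.33, 0.481 to 0.633 and 0.405 to 1.45. Rac2 to Cybb was 1.46 to 3.95 in group Sham, 0.874 to 1.5 in group MI and 0.702 to 1.24 in group DAPA. The ratio of Rac1, the widely expressed alternative GTPase, to Rac2 was 4.94 to 13.1 in group Sham, 1.14 to 3.68 in group MI and 3.25 to 4.75 in group DAPA. Between MI and Sham the ratios Cyba to Cybb, Cybb to Nox4, Ncf4 to Cybb, Ncf1 to Cybb and Rac1 to Rac2 did not overlap, whereas Rac2 to Cybb did. Cyba to Nox4 also overlapped, at 17.6 to 27.3 in group Sham and 15.3 to 25.6 in group MI. No test was run on the ratios.

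**Figure D2:**
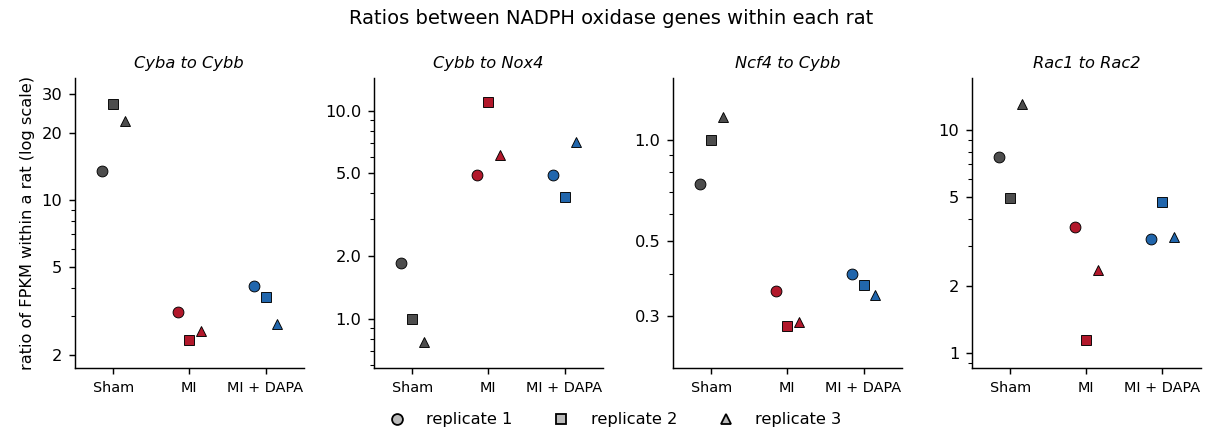
Ratio of FPKM between pairs of NADPH oxidase genes within each rat, on log axes, for group Sham, group MI and group DAPA, with replicate numbers as symbols. Cyba to Cybb was 13.5 to 27.2 in group Sham and 2.33 to 3.12 in group MI, and the drug-treated rats lay at 2.75 to 4.10.

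The second comparison asked whether subunit levels in infarcted hearts differed with DAPA. All 6 members had lower means in group DAPA than in group MI, and none passed the test. No member was called, and 0 of 6 had an unadjusted limma p under 0.05, where 0.951% of 13251 genes were called higher and 1.11% lower. In 0 of 6 members did every treated rat lie below every MI rat, which held for 7.16% of all genes. By limma 0 genes, or 0.0%, had an adjusted p under 0.05, against 1125 with an unadjusted p under 0.05, and the smallest adjusted p was 0.558. The voom alternative on recovered reads gave 0 genes with an adjusted p under 0.05 and 1081 unadjusted.

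The size of the differences that these rats leave possible is given by the intervals. Cybb differed by -0.63 on the log2(FPKM + 1) scale (SE 0.32, 95% CI -1.39 to 0.12, limma with Benjamini-Hochberg adjusted p = 0.558). DAPA replicate 3, at 39.2 FPKM, lay above MI replicates 1 and 3 and below replicate 2. Rac2 differed by -0.83 (SE 0.41, 95% CI -1.81 to 0.16, limma with Benjamini-Hochberg adjusted p = 0.558). The interval of Rac2 thus reached from a decrease well beyond the fold threshold to a small increase. For Ncf4 the difference was -0.35 (95% CI -0.95 to 0.26), for Cyba -0.27 (95% CI -0.80 to 0.26), for Ncf1 -0.18 (95% CI -0.92 to 0.55) and for Nox4 -0.18 (95% CI -0.51 to 0.14). Among these, the interval of Nox4 was the narrowest and that of Rac2 the widest of the 6. MI replicate 2 was the highest MI rat for every member except Nox4. Without it the difference was -0.38 for Cybb, -0.35 for Rac2 and 0.02 for Ncf1. Without DAPA replicate 3, the treated rat with the highest Cybb, the difference of Cybb was -0.91 with an unadjusted limma p of 0.0191. It stayed under the fold threshold and was not called. Without MI replicate 1, the MI rat with the lowest Rac2, the difference of Rac2 was -1.16 with an unadjusted limma p of 0.0256, and Rac2 was called lower.

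The third comparison set the treated infarcted hearts against sham hearts. It shares rats with both other comparisons, so the 3 sets of values are not independent. Cybb rose in group DAPA, by 2.01 on the log2 scale (SE 0.38, 95% CI 1.13 to 2.89, limma with Benjamini-Hochberg adjusted p = 0.00899). It was the 1 member called higher of 6, with 0 called lower, against 9.54% and 8.16% of 13359 genes in these directions, and 8.74% of all genes tested combined a log2 difference above 1 with an adjusted p under 0.05. All treated rats lay above all Sham rats for 3 of 6 members, Cybb, Ncf1 and Rac2, which held for 23.2% of all genes. Rac2 differed by 0.91 (95% CI 0.26 to 1.57, limma with Benjamini-Hochberg adjusted p = 0.0454) and stayed under the fold threshold. It passed that threshold without DAPA replicate 2 at 1.08, without Sham replicate 1 at 1.05 and without Sham replicate 2 at 1.08. The difference was 0.74 for Ncf4 (95% CI 0.08 to 1.39, limma with Benjamini-Hochberg adjusted p = 0.0899) and 0.49 for Ncf1 (95% CI -0.07 to 1.05). Cyba differed by -0.35 (95% CI -0.87 to 0.17) and Nox4 by 0.02 (95% CI -0.40 to 0.44). On the scale of all recovered reads Cyba stood at 0.53, below the median of all genes at 0.74.

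**Figure D3:**
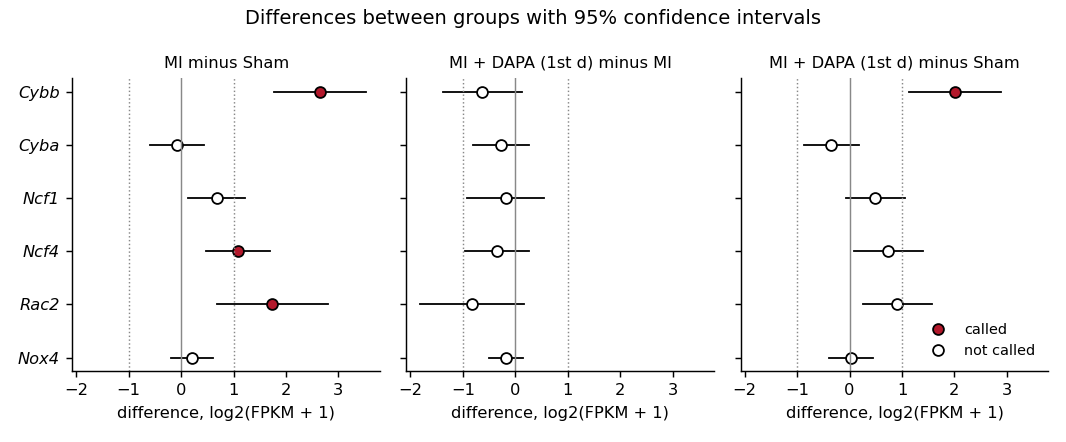
Difference between group means on the log2(FPKM + 1) scale for the 6 subunits in 3 comparisons, with 95% confidence intervals as lines, called members as filled points and dotted lines at the fold threshold of 1. Cybb, Ncf4 and Rac2 are filled in MI minus Sham, Cybb in DAPA minus Sham, and no member in DAPA minus MI.

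The members' levels stand beside those of the cell types that carry them. In bulk tissue fewer cells of a type and less RNA per cell cannot be told apart. In MI against Sham, 12.1% of all genes tested were called higher and 10.3% lower. Of 10 macrophage markers 9 were tested, and 9 of 9 were called higher in MI rats than in Sham rats, with a median log2 difference of 2.51. Their summed level was 112 to 426 FPKM in group Sham, 1550 to 2800 FPKM in group MI and 869 to 1560 FPKM in group DAPA, and Marco was at 0 in every Sham rat and every treated rat. All 4 pan-leukocyte markers were called higher in group MI, with sums of 33.0 to 60.6, 124 to 326 and 74.4 to 123 FPKM in the 3 groups. In DAPA against MI, 0.951% of all genes were called higher and 1.11% lower. Of the markers, 0 of 9 macrophage and 0 of 4 pan-leukocyte markers were called by limma, at median log2 differences of -0.69 and -0.89. Every treated rat lay below every MI rat for Cd163 (-0.98), Mrc1 (-0.96), Lyz2 (-0.69), Cd53 (-0.89) and Laptm5 (-0.90), as for 7.16% of all genes. The other tested markers of these lists overlapped. Cd163, Mrc1 and Laptm5 had unadjusted limma p-values of 0.0072, 0.0099 and 0.0242, each with an adjusted p of 0.558. In the same comparison the 7 cardiomyocyte markers all had positive differences (median 1.31), with Tnni3 (1.56) and Myl2 (1.59) called higher. The T cell marker Cd3e (-1.85) and the fibroblast marker Col1a1 (-1.15) were called lower. None of these 4 calls held in every setting with a rat left out, and none had an adjusted limma p under 0.05. Of 8 neutrophil markers 3 were tested and 1, Csf3r, was called higher in group MI, a gene under 1 FPKM in every Sham rat. The sums of 13.7 to 49.2, 18.5 to 71.0 and 13.1 to 178 FPKM overlapped, with Mpo and Elane at 0 in every Sham rat. All 6 fibroblast markers were called higher in group MI, with sums of 321 to 514, 1810 to 3380 and 1380 to 1910 FPKM, and 4 of 4 endothelial markers lower, with sums of 787 to 850, 181 to 241 and 232 to 275 FPKM. Of 7 cardiomyocyte markers 2, Myh6 and Tnni3, were called lower in group MI. The part of these cell types in the members' differences was not tested.

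Expressed as a share of the summed macrophage markers, Cybb was 2.52% to 3.70% in group Sham, 2.07% to 2.26% in group MI and 1.89% to 2.52% in group DAPA. Cybb thus differed far less between groups per unit of macrophage marker than per library. On this scale the MI rats lay below the Sham rats, but Lyz2 made up 53.6% to 66.4% of the sum in group Sham and 71.4% to 73.7% in group MI. Against the other 9 macrophage markers, a setting added after the data were seen, Cybb was 6.66% to 7.96% in Sham rats, 7.41% to 8.35% in MI rats and 7.65% to 8.72% in DAPA rats, and the groups overlapped. Against the pan-leukocyte markers the direction was the other way, at 9.04% to 17.7%, 18.2% to 26.4% and 21.9% to 31.8%. Rac2 overlapped between all 3 groups on the pan-leukocyte scale, at 24.7% to 35.7%, 22.8% to 27.4% and 22.3% to 27.2%. Ncf4 also overlapped there, at 9.04% to 14.7%, 5.11% to 9.26% and 8.75% to 11.0%. On the macrophage scale MI rats lay below Sham rats for both, at 3.67% to 10.7% and 1.81% to 3.19% for Rac2 and 1.86% to 4.34% and 0.595% to 0.737% for Ncf4. Without Lyz2 in the sum Rac2 overlapped, at 10.9% to 26.3% and 6.89% to 11.1%, and Ncf4 did not, at 5.53% to 9.34% and 2.08% to 2.80%. Cyba differed from these members in that it was 238% to 286% of the pan-leukocyte sum in group Sham and 42.4% to 81.3% in group MI. Nox4 was 9.01% to 16.2% of the pan-leukocyte sum in group Sham and 1.65% to 5.30% in group MI. These shares are descriptions, and no test was run on them.

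**Figure D4:**
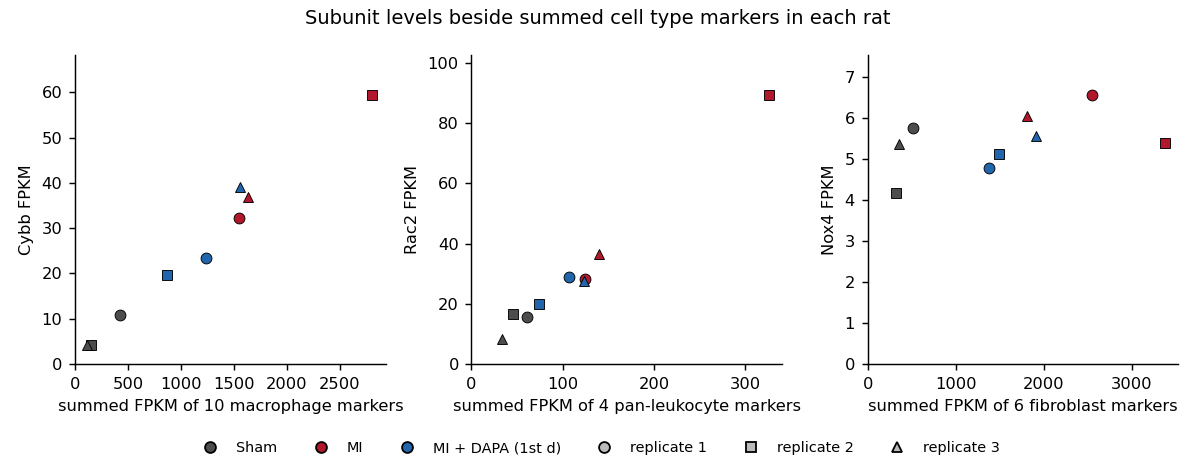
FPKM of Cybb against the summed macrophage markers, of Rac2 against the summed pan-leukocyte markers and of Nox4 against the summed fibroblast markers, with each rat as a point, colours for groups and symbols for replicates. MI replicate 2 is the point at the upper right in the first panels (59.4 FPKM of Cybb and 89.4 FPKM of Rac2), and Nox4 lay between 4.15 and 6.55 FPKM in all 9 rats.

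Patterns over the 9 rats were compared by Pearson's r of log2(FPKM + 1), given as a description over points that share their groups. The genes most like each member were taken among 11545 named genes that reached an FPKM of 1 in 3 or more rats. For Cybb they were Fcer1g, the common chain of Fc receptors (r = 0.997), C1qa, a chain of complement C1q (r = 0.996) and Csf1r, the receptor of the macrophage growth factor (r = 0.996). Fcer1g stood at 15.1 to 35.0 FPKM in group Sham, 117 to 185 FPKM in group MI and 65.9 to 137 FPKM in group DAPA. For Rac2 they were Vav1, the exchange factor of blood cells (r = 0.987), Aldh1a2, a retinoic acid synthase (r = 0.982) and Rasa3 (r = 0.979). For Ncf4 they were Add3 (r = 0.995), Ankrd52 (r = 0.988) and Cyp2d3 (r = 0.985), and for Ncf1 Gstt3 (r = 0.938), Sema4d (r = 0.937) and Ppil1 (r = 0.937). Cyba was closest to Dip2b (r = 0.964), Wdr33 (r = 0.957) and Rtf1 (r = 0.940), and Nox4 to Nkapd1 (r = 0.915), Cped1 (r = 0.903) and Gnai1 (r = 0.894). No gene was among the 3 nearest of more than 1 member. Among the members, Cybb and Ncf4 ran closest together (r = 0.963, and 0.960 after each group's mean was removed). Cybb and Cyba had an r of 0.05 over the 9 rats and 0.89 after the group means were removed, so within groups rats high in one tended to be high in the other. Ncf1 and Cybb had an r of 0.63 and, after removal of the group means, -0.01.

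The other genes of the pathway were described by their roles. Of 51 genes listed, 47 were found by name. The remaining 4 were not analysed here. In MI against Sham 38 were tested, and 18 were called higher and 0 lower, with a median log2 difference of 0.99 against -0.01 over all genes. Of all genes tested, 12.1% were called higher and 10.3% lower, and the same shares stand beside the counts by role below. Of these 18 genes 5 (Sh3pxd2b, Prkca, Pla2g4a, Hvcn1 and Fcgr2b) were under 1 FPKM in every Sham rat. They entered the test through the MI rats in which they were high, so their calls follow in part from the filter.

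The remaining catalytic subunits were at or near the bottom of the scale. Nox3 was at 0 in all 9 rats, Nox1 at 0 in group Sham and at most 0.236 FPKM elsewhere, and Duox1 and Duox2 were at most 0.608 and 0.609 FPKM. None of these 4 passed the filter, and Cybb and Nox4 were the catalytic genes tested. The partners of NOX1, Noxa1 and Noxo1, were at most 0.141 and 0.0576 FPKM. The DUOX maturation factors were low too, with Duoxa1 at 0.299 to 2.46 FPKM and Duoxa2 at 0 to 1.84 FPKM over the 9 rats, and were not called in any comparison in which they were tested.

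Sh3pxd2b, a scaffold related to the organisers, was 0.312 to 0.990 FPKM in group Sham, 2.65 to 5.16 FPKM in group MI and 0.837 to 3.25 FPKM in group DAPA. It was the partner subunit called higher in group MI (log2 difference 1.54), as 1 of the genes that entered the test through the MI rats. Cybc1, a chaperone needed to build the Cybb and Cyba heterodimer, was 10.7 to 12.9 FPKM in group Sham, 18.0 to 25.8 FPKM in group MI and 15.3 to 16.3 FPKM in group DAPA. No group overlapped another for Cybc1, but the difference of 0.87 between MI and Sham stayed under the fold threshold. Its unadjusted limma p was 0.0219 in DAPA against MI, with an adjusted p of 0.558. Poldip2, which binds p22phox and is known to raise Nox4 activity, was 22.4 to 25.6, 29.6 to 48.3 and 44.9 to 56.3 FPKM in the 3 groups. It was called higher in group DAPA than in group Sham (2.04-fold on the log scale, limma with Benjamini-Hochberg adjusted p = 0.00433) and not in group MI, and in the 2 groups with infarction its values overlapped. Without DAPA replicate 1 or Sham replicate 3 its difference from Sham was 0.94 or 0.98 on the log2 scale and was not called. Sh3pxd2a was 4.13 to 5.62 FPKM in group Sham and 5.94 to 7.29 FPKM in group MI and was not called.

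None of the 4 other small GTPases was called in any comparison. Rac1 was 81.2 to 118 FPKM in group Sham, 86.7 to 104 FPKM in group MI and 91.2 to 94.4 FPKM in group DAPA. Rac3 was 0 to 5.31 FPKM over all rats. Cdc42 was 77.9 to 104, 122 to 166 and 110 to 145 FPKM, and Rap1a was 52.7 to 67.3, 35.8 to 50.9 and 39.1 to 47.5 FPKM, with log2 differences between MI and Sham of 0.59 and -0.60. Each of these 2 separated the Sham rats from the MI rats at an adjusted limma p of 0.0377 and 0.0410, under the fold threshold.

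Regulators of the GTPases rose in part. Of 6 tested, 3 exchange factors were called higher in group MI, namely Vav1 (log2 difference 1.81), Vav2 (1.11) and Prex1 (1.03). Prex1 was 5.37, 14.8 and 7.73 FPKM in the MI rats, and its difference was 0.66 without MI replicate 2 and 0.97 without Sham replicate 3, in neither case called. Vav1 was 0.538 to 1.35 FPKM in group Sham and 4.13 to 11.5 FPKM in group MI. Of 7 kinases and lipid enzymes, 4 were called higher: Pak1 (1.90), Prkcb (1.84), Pla2g4a (1.78) and Prkca (1.38), the last 2 under 1 FPKM in every Sham rat. Prkca and Prkcb encode protein kinase C enzymes that phosphorylate p47phox, and Pla2g4a encodes a phospholipase that releases arachidonic acid. Hvcn1, the proton channel that balances the charge moved by the oxidase, was 0 to 0.657 FPKM in group Sham, 3.27 to 7.50 FPKM in group MI and 2.68 to 4.75 FPKM in group DAPA, and was called higher in group MI (2.06), again with no Sham rat at 1 FPKM.

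Nrros, whose product lowers the amount of NOX2 protein in phagocytes, had its highest levels in group Sham. It was 32.7 to 40.0 FPKM in group Sham, 14.7 to 25.1 FPKM in group MI and 12.9 to 16.4 FPKM in group DAPA. In MI against Sham the difference of -0.92 (limma with Benjamini-Hochberg adjusted p = 0.0142) stayed under the fold threshold. In DAPA against Sham it was called lower, at -1.26 (limma with Benjamini-Hochberg adjusted p = 0.00281).

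Upstream receptors and ligands formed the role with the most calls in MI against Sham, 9 of 10 tested. The angiotensin receptor Agtr1a led with a log2 difference of 2.92, followed by the Fc receptors Fcgr3a (2.56), Fcgr1a (2.37) and Fcgr2b (2.35). The fungal receptor Clec7a stood at 2.34, the integrin chain Itgb2 at 2.32, the complement receptor C5ar1 at 2.25, and the Toll-like receptors Tlr2 and Tlr4 at 2.17 and 1.22. Fcgr genes are a family of similar sequence, so how reads were divided among them is uncertain. Tgfb1, which is known to induce Nox4 in fibroblasts, was 36.6 to 58.0 FPKM in group Sham and 63.5 to 73.9 FPKM in group MI and was not called. Of the enzymes that supply NADPH, 0 of 3 tested were called in MI against Sham.

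**Figure D5:**
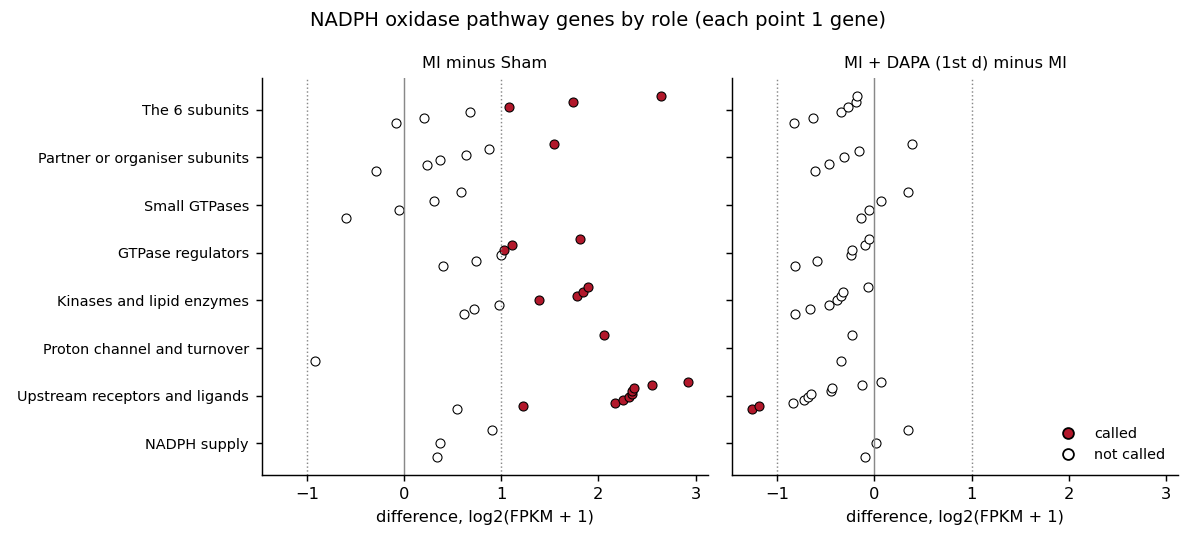
Difference on the log2(FPKM + 1) scale of each tested NADPH oxidase gene, grouped by role, in MI minus Sham and in DAPA minus MI, with called genes as filled points and dotted lines at the fold threshold of 1. In MI minus Sham 3 of 6 subunits and 9 of 10 upstream receptors and ligands are filled, and in DAPA minus MI the filled points are Agtr1a and Fcgr2b.

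In DAPA against MI, 37 pathway genes were tested, and 0 were called higher and 2 lower, with a median log2 difference of -0.32 against -0.02 over all genes. Of all genes tested, 0.951% were called higher and 1.11% lower. Agtr1a was 10.4, 24.1 and 11.9 FPKM in group MI and 5.64, 4.42 and 6.51 FPKM in group DAPA. Its difference was -1.26, with an unadjusted p of 0.00514 and an adjusted p of 0.558 in limma. Fcgr2b was 5.74, 13.8 and 6.18 FPKM in group MI and 3.92, 2.64 and 2.36 FPKM in group DAPA, a difference of -1.19 with an unadjusted p of 0.00884 and an adjusted p of 0.558 in limma. For both genes every treated rat lay below every MI rat, as for 7.16% of all genes. The same held for Cybc1, Vav1, Prkca, Prkcb, Prkcd, Prkcz and Pak1, which were not called. Of these, Pak1 (-0.67) had the smallest unadjusted limma p, 0.00388, with an adjusted p of 0.558. The calls of Agtr1a and Fcgr2b did not hold over all genes after adjustment. Without MI replicate 2 the number of pathway genes called was 0, while without MI replicate 1 it was 4. Agtr1a was 0.803 to 1.58 FPKM in group Sham, so the treated rats lay between the other groups. In DAPA against Sham 36 were tested, and 16 were called higher and 1, Nrros, lower, with a median log2 difference of 0.82 against 0.01 over all genes. Of these 17 calls 4 (Prkca, Pla2g4a, Hvcn1 and Fcgr2b) were of genes under 1 FPKM in every Sham rat. They entered the test through the treated rats in which they were high, so their calls follow in part from the filter. Of all genes tested, 9.54% were called higher and 8.16% lower. Without DAPA replicate 3 the number of pathway genes called in this comparison was 10.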

How the data were processed

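Poly-A selected RNA of left ventricles was sequenced as paired ends from 9 libraries, 3 per group, taken here as 1 rat each. The titles in the labels give each library a pair of names whose meaning is not stated. The FPKM values were computed and deposited by the authors, 1 column per library, mapped to its group by its name, with 0 columns left out. The submitters' processing notes name HISAT2 2.0.5, StringTie 1.3.3b, featureCounts 1.5.0-p3 and DESeq2, without their order, and the genome build is not given in the sources used here. The kit did not mark strand, so reads of a gene and its antisense partner cannot be told apart.

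Whole reads were recovered from the steps of the deposited FPKM values for 18896 of 18896 genes with values in at least 4 libraries (tolerance 0.02 reads). The members had between 64 and 4486 reads per rat. FPKM were tested with limma 3.58.1 in R 4.3.3 on log2(FPKM + 1), with a trend in the prior variance, the groups compared alone in each fit and no covariate, for genes that reached an FPKM of 1 in 3 or more rats. The scale understates changes of low genes. Calls used an unadjusted p under 0.05 and a log2 fold change beyond 1, as in the study's criteria, whose adjustment is not stated. P-values set the group differences against the spread between these libraries, with a variance moderated over all genes tested. The fit was tested on simulated data with known changes.

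Named genes were all members, all catalytic, partner and GTPase genes of a pathway list, other listed genes called in MI against Sham or in DAPA against MI, and the 3 genes nearest each member by Pearson's r among genes with a symbol, names of the RF, AABR, LOC, RGD and AC series left out. Csf3r, Marco, Mpo, Elane, Myh6, Tnni3, Myl2, Cd3e, Col1a1, Lyz2, Sh3pxd2a and Tgfb1 were named as listed genes after their values were seen. Cd163, Mrc1, Cd53 and Laptm5 were named in the same way. The members and lists were chosen with earlier results of these data known. Alternatives were another pseudocount, no filter, all 9 rats in 1 fit, a replicate block, other library scalings, voom on recovered reads, other thresholds and each rat left out. The macrophage sum without Lyz2 was added after the data were seen. Promoter sequences came from RefSeq (GRCr8). Figures were drawn with Python 3.11.15 and matplotlib 3.10.9.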

Additional observations from a re-analysis of the deposited data

How the results depend on the processing

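Of 234 recomputed member differences, 213 kept their direction and side of the threshold, and 9 newly passed it with the same sign. A further 3 (all Ncf4 in MI against Sham) no longer passed it, and 9 changed sign, all of genes not called in the report. Among those that changed sign, Cyba in MI against Sham passed the threshold on the scale of all recovered reads. Scaling to all recovered reads shifted all genes together. It called 6 members in MI against Sham, 4 in DAPA against Sham, and 33, 4 and 27 pathway genes in MI against Sham, DAPA against MI and DAPA against Sham, and Cyba changed sign to 1.02 in MI against Sham and 0.53 in DAPA against Sham. Nox4 in DAPA against Sham changed sign to -0.085 with scaling outside the mitochondrial genome and -0.098 with voom. With a rat left out, Cyba in MI against Sham ranged from -0.25 to 0.08, Ncf1 in DAPA against MI from -0.458 to 0.016 and Nox4 in DAPA against Sham from -0.094 to 0.102. With no fold threshold 29, 6 and 26 pathway genes were called in the same order, and 3 members in DAPA against Sham. With adjusted p-values 0 pathway genes were called in DAPA against MI. When each rat was left out in turn, the members called ranged from 2 to 3, 0 to 1 and 1 to 2, and the pathway genes called from 14 to 22, 0 to 4 and 10 to 18. Over all genes tested, 3024, 273 and 2364 were called in the same order of comparisons. Scaling to all recovered reads called 6388 in MI against Sham and 4666 in DAPA against Sham, and dropping the fold threshold called 6605, 1125 and 5534. In DAPA against MI 0 were called with adjusted p-values and 111 to 561 when a rat was left out.

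The labels do not say whether replicate numbers pair the rats. Deviations of same-numbered rats from their group means had correlations between -0.304 and 0.195 over the 3 comparisons. With 3 rats per group these values cannot show whether a pairing existed. With the replicate block the members called were 3, 0 and 1, as without it. Depth limits the low end: with 64 reads, counting error alone was 12.5% for Ncf4 in group Sham, and Nox3 at 0 means only that it was not detected at this depth. With 3 rats per group, differences whose intervals include 0 cannot be told from 0.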
